A study of Homo sapiens with 12 samples.

Results

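SNB19, an established glioblastoma cell line, was compared after transfection with siRNAs against PARK2 and after transfection with a scramble siRNA. The 6 SNB19 arrays of the 12 arrays in the series were chosen by their titles: 2 with scramble, 2 with PARK2 siRNA1 and 2 with PARK2 siRNA2. The remaining 6 arrays hold the same 3 treatments in SF539, a second established glioma line, and serve here as the comparison. In every group the siRNA was delivered with the lipid reagent Lipofectamine RNAiMAX and total RNA was taken after 48 h, so the scramble arrays share the transfection itself. The main comparison is the mean of both PARK2 siRNAs minus scramble in SNB19.

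Each group has 2 arrays. The labels name no separate cultures behind them, and p-values therefore reflect only how far these samples differ, a spread that may be technical. The number of arrays limits the precision. PARK2 is not analysed here, so the knockdown was not checked, and with no untransfected sample among the arrays a difference can lie with the scramble arrays or with the PARK2 siRNA arrays. In bulk RNA, fewer cells of a type and less RNA per cell cannot be told apart.

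PARK2 encodes parkin, a ubiquitin ligase that acts with the kinase PINK1 to mark damaged mitochondria for removal. Interferons are secreted proteins that cells release on sensing viral or foreign nucleic acid. They bind surface receptors whose JAK kinases switch on transcription factors, and these bind the interferon-stimulated response element in the promoters of antiviral and antigen presentation genes.

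Values are on the log2 scale, and a change is a difference of log2 values. A gene was called at a limma adjusted p of at most 0.05 over the 8545 genes tested. Of these, 1322 genes (15.5%) were called higher with the PARK2 siRNAs and 1484 (17.4%) lower. Called genes that changed at least 2-fold numbered 150 higher (1.76%) and 259 lower (3.03%). Of those 259 genes, 193 lie outside the lists of interferon and MHC genes used below. The lists are not complete, and immune genes such as LY6E, SAMHD1 and CCL5 lie outside them. The 193 are therefore no count of genes that interferon leaves alone. Among called genes 2707 of 2806 had no overlap between the 2 scramble arrays and the 4 PARK2 siRNA arrays. The calls were made on these same arrays, so this separation is no separate evidence, and the share over all genes is not given. The larger changes ran downward: 96 genes were lower and 18 higher by at least 4-fold. With each array centred on its median, 1822 genes were called higher and 1060 lower, and the median change of all genes moved from -0.01 to 0.09. Without the first scramble array 818 genes were called higher and 923 lower, and without the second 862 and 1033.

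Array medians lay between 5.94 and 6.14, with both SNB19 scramble arrays at the upper end, at 6.14 and 6.11. Between replicate arrays r was 0.990 to 0.998, computed over probe sets, and probe sets are no independent replicates. SNB19 scramble arrays correlated with SNB19 PARK2 siRNA arrays at 0.976 to 0.978, and arrays of different lines at 0.910 to 0.929. Over 299 genes that differ by at least 3 between the lines under the PARK2 siRNAs, each array was given a position. The mean of the SNB19 PARK2 siRNA arrays was set at 0 and that of the SF539 PARK2 siRNA arrays at 1. Genes that change with the siRNAs in SNB19 therefore move its scramble arrays away from 0. The SNB19 scramble arrays had median positions of 0.067 and 0.0761, and 17.1% and 16.4% of these genes lay nearer to SF539 on them. Outside the interferon and MHC lists the shares were 9.29% and 8.55% of 269 genes. Of 37 measured leukocyte markers 2 were called higher and 0 lower, and the list averaged 4.10 with scramble and 4.13 with either PARK2 siRNA, near the lower quartile of the arrays.

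Many of the genes that fell the most carry the interferon-stimulated response element in their promoters. As examples 4 stretches are shown, from genes among the 11 largest falls of the comparison. Each holds 2 matches, as do those of IFIT3 and IFI44L, also among the 11. The stretches of MX1, RSAD2 and IFITM1 hold 1 each, and OAS1 and PSMB9 gave no stretch. The bases are from RefSeq (GRCh38.p14), 5′ to 3′ on the strand of the gene, all before its start site, and the capitals mark matches to the interferon-stimulated response element on either strand. IFI27 lies at chr14:94110603-94110675 on the plus strand, BST2 at chr19:17405720-17405785 on the minus strand, IFIT1 at chr10:89392482-89392554 on the plus strand and ISG15 at chr1:1013359-1013424 on the plus strand.
IFI27: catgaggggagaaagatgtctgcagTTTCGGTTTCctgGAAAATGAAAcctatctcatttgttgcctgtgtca
BST2: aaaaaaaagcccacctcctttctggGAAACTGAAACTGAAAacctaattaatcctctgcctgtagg
IFIT1: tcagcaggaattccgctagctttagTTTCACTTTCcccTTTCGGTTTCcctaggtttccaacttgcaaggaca
ISG15: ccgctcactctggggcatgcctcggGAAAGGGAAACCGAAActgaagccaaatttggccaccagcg

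The interferon-stimulated response element was searched on both strands in windows of 250 bases before and 50 after each start, and a gene counted if any of its windows held it. Of the 6832 genes with a window 4.51% held the element. Among genes called lower by at least 4-fold the share was 43.2%, and it was 9.52% among those lower by 2- to 4-fold. It was 4.11% among genes lower by less than 2-fold, 3.92% among genes not called and 4.96% among genes higher by at least 2-fold. Outside the interferon and MHC lists, 4 of 34 genes lower by at least 4-fold held it (11.8%). Among the 147 such genes lower by at least 2-fold 9 held it (6.12%), nearer the 4.51% of all genes. A match describes the sequence and does not show binding.

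**Figure D1:**
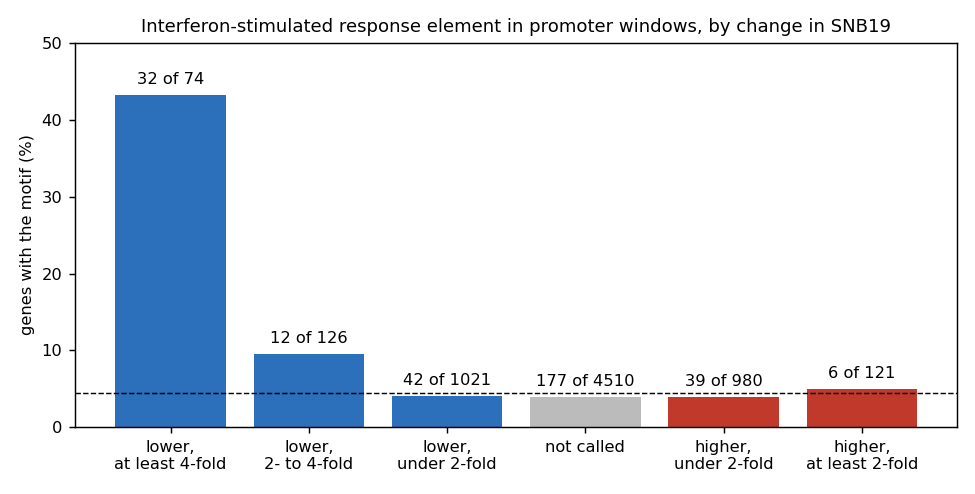
Share of genes (%) whose promoter window holds the interferon-stimulated response element, by class of change in SNB19, with the number of genes over each bar and all 6832 genes as the dashed line. The share is 43.2% in genes lower by at least 4-fold and between 3.92% and 9.52% in the other classes.

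Interferon-stimulated effector genes were far lower with the PARK2 siRNAs. Of 50 measured members 44 fell and 1 rose, with a median change of -3.11, against a median of -0.01 over all genes tested. IFI27, an interferon-induced mitochondrial protein gene, read 12.94 and 12.98 on the scramble arrays, 3.99 and 3.97 with siRNA1, and 4.75 and 4.49 with siRNA2. The groups did not overlap. The siRNA1 values lay near the lower quartiles of their arrays and the siRNA2 values somewhat above theirs. MX1, which encodes an antiviral GTPase, had a mean of 10.94 ± 0.08 (SD, n = 2) with scramble, read 4.41 and 4.40 with siRNA1, and 5.00 and 4.66 with siRNA2, and fell by 6.32 ± 0.12 (SE, limma adjusted p = 2.76e-10). OAS1, a sensor of double-stranded RNA, and BST2, which tethers virus particles, changed by -6.34 and -6.52. The member that rose was TOR1B, by 0.30, and it was not called without the second scramble array. CXCL10, a chemokine that draws T cells, was the single gene that went from above the array median on both scramble arrays to below the lower quartile on all 4 PARK2 siRNA arrays, at 7.78 and 7.66 against 3.12 to 3.84.

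The machinery upstream of these genes was lower in part. Of 29 interferon signalling regulators 10 fell and 3 rose, and 6 fell without the second scramble array. IRF9, the DNA-binding subunit of the interferon-activated complex, read 9.09 and 9.04 with scramble and 6.01 to 6.40 with the PARK2 siRNAs, without overlap, and fell by 2.87 ± 0.14 (limma adjusted p = 3.27e-07). NMI, an interferon-inducible protein gene, and IRF1, a transcription factor gene induced by interferon, changed by -2.58 and -1.86. SOCS1, which inhibits JAK kinases, fell by 1.39, its other probe sets reaching -0.03, and the kinase genes JAK2 and JAK1 fell by 0.91 and rose by 0.62. IRF7 rose by 0.64, at 3.35 and 3.78 with scramble and 3.78 to 4.40 with the PARK2 siRNAs, all near the lower quartile, and was not called without the first scramble array.

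Of 19 measured interferon ligand and receptor genes 3 (15.8%) fell and 2 (10.5%) rose, near the 17.4% and 15.5% of all genes, and without the first scramble array 2 were called lower and 1 higher. IFNB1, the interferon beta gene, read 5.52 and 5.11 with scramble and 3.75 to 4.15 with the PARK2 siRNAs, without overlap, and fell by 1.39 ± 0.22 (limma adjusted p = 0.00101). The type I receptor gene IFNAR1 rose by 0.68, and IFNGR1, a subunit of the interferon gamma receptor, fell by 0.55, a call lost with median centring. IFNAR2, the other type I receptor gene, changed by 0.01 and was not called, while its second probe set changed by 0.87.

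Among sensors of nucleic acid and their adaptors 8 of 14 fell and 0 rose, with a median of -0.53. TLR3, the endosomal receptor for double-stranded RNA, read 8.23 and 8.18 with scramble, 3.71 and 3.87 with siRNA1, and 4.80 and 4.27 with siRNA2. These arrays did not overlap, and TLR3 fell by 4.04 ± 0.15 (limma adjusted p = 3.08e-08). IFIH1, the cytosolic sensor MDA5, changed by -2.40, IFI16, a DNA sensor, by -1.52, and EIF2AK2, the RNA-activated kinase PKR, by -1.24.

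Antigen presentation through MHC class I was lower at several steps. Of 22 measured genes 17 fell and 0 rose, with a median of -1.46. PSMB9, a subunit of the immunoproteasome that cuts peptides, read 11.69 and 11.74 with scramble, 5.15 and 5.10 with siRNA1, and 6.55 and 6.15 with siRNA2. TAP1 and TAP2, the peptide transporter, changed by -3.69 and -3.22, with a smallest change of -0.58 among the probe sets of TAP2, and the heavy chain gene HLA-B fell by 2.72, from 13.57 and 13.50 to between 10.60 and 11.06. B2M, the shared light chain, fell by 0.62 and stayed above 13 on every array. HLA genes are near-identical in sequence and their probe sets may share signal. Of 14 MHC class II genes 3 (21.4%) fell, CTSS, RFX5 and HLA-DOB, near the 17.4% of all genes. HLA-DRA changed by 0.17 and was not called.

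**Figure D2:**
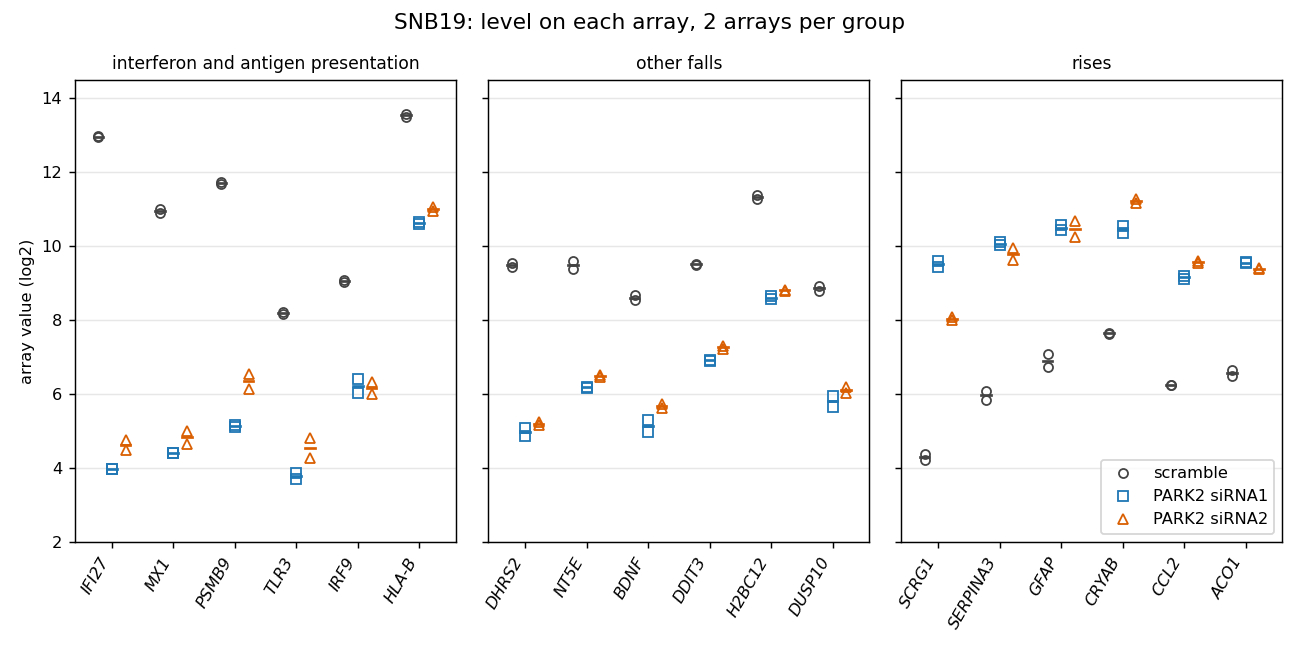
Level (log2) of 18 genes on each SNB19 array, with circles for scramble, squares for PARK2 siRNA1, triangles for PARK2 siRNA2 and a bar at each mean of 2 arrays. In every gene shown the 2 scramble arrays lie apart from the 4 PARK2 siRNA arrays, as with IFI27 at 12.94 and 12.98 against 3.97 to 4.75.

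Outside those lists the largest fall was that of DHRS2, a short-chain dehydrogenase gene. DHRS2 read 9.56 and 9.44 with scramble and 4.86 to 5.24 with the PARK2 siRNAs, without overlap, a change of -4.41 ± 0.15 (limma adjusted p = 2.11e-08). Several others in this group belong to immunity: LY6E, a surface protein gene, changed by -3.97, SAMHD1, a nucleotide hydrolase that restricts retroviruses, by -3.67, and the cytidine deaminase gene APOBEC3G by -2.63, although a second probe set of APOBEC3G changed by 0.10. The butyrophilin genes BTN3A1, BTN3A2 and BTN3A3, whose proteins are recognised by gamma delta T cells, changed by -3.22, -2.90 and -3.69. Their sequences are near-identical, so each gene's own share of the signal is uncertain.

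Some secreted factors were lower. BDNF, a neurotrophin gene, read 8.54 and 8.69 with scramble and 4.97 to 5.73 with the PARK2 siRNAs. IL15 and IL7, cytokine genes that support lymphocytes, changed by -3.12 and -1.96, and the chemokine gene CCL5 fell by 3.45. CFB, a complement factor, changed by -3.11 and C1R by -2.02, and a second probe set of CFB changed by 0.01. Of 48 cytokine and growth factor genes 11 (22.9%) fell and 7 (14.6%) rose, near the 17.4% and 15.5% of all genes, and 3 were called higher without the first scramble array. NT5E, the surface enzyme that makes adenosine, read 9.38 and 9.60 with scramble and 6.17 to 6.52 with the PARK2 siRNAs.

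**Figure D3:**
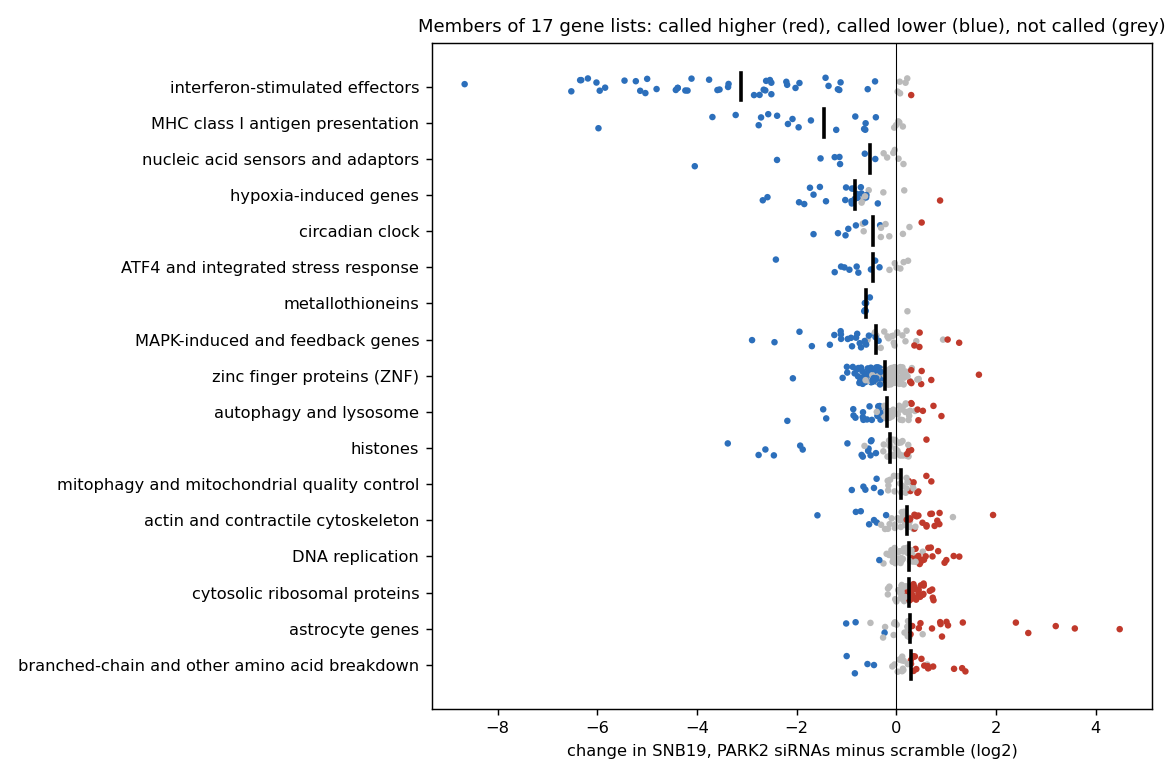
Change in SNB19 (log2, PARK2 siRNAs minus scramble) of each measured member of 17 gene lists, red where called higher, blue where called lower and grey where not called, with a black bar at the median. The median is -3.11 for interferon-stimulated effectors and 0.29 for branched-chain and other amino acid breakdown.

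Genes of the integrated stress response, in which ATF4 raises amino acid supply and DDIT3 promotes death, were lower. Of 16 measured regulators 10 fell and 0 rose, with a median of -0.47. DDIT3 read 9.49 and 9.53 with scramble, 6.89 and 6.93 with siRNA1, and 7.31 and 7.22 with siRNA2, and fell by 2.42 ± 0.07 (limma adjusted p = 6.52e-09). ATF4 itself fell by 1.04 ± 0.16 (limma adjusted p = 0.000888), from 11.74 and 11.72 to between 10.30 and 10.90. Of 27 ATF4 target and amino acid supply genes 11 fell, or 6 without the first scramble array and 7 with median centring, and 4 rose, the fallen including SLC7A5 and SLC3A2, the subunits of a large amino acid transporter, which changed by -1.95 and -1.62. ASNS, the asparagine synthetase gene, changed by 0.06 and was not called. Of 24 chaperone and unfolded protein response genes of the endoplasmic reticulum 4 (16.7%) rose and 3 (12.5%) fell, near the 15.5% and 17.4% of all genes, and 2 were called higher without the first scramble array. HSPA5, which encodes its main chaperone, changed by -0.18 and was not called. The ATF4 element TGATGNAAN, searched on both strands, was in promoter windows of 3.67% of all genes with a window. Among 21 ATF4 target genes, whatever their change, the share was 28.6%. By change it was 4.5% among genes lower by at least 2-fold and 4.13% among those higher by at least 2-fold.

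Genes that low oxygen induces fell more with siRNA2 than with siRNA1. Of 29 measured 22 fell and 1 rose, with medians of -0.59 for siRNA1 and -1.20 for siRNA2, and 14 of them were called different between the siRNAs, against 6.06% of all genes tested. ADM, a vasodilator peptide gene, read 10.60 and 10.54 with scramble, 8.93 and 8.69 with siRNA1, and 7.22 and 7.09 with siRNA2. VEGFA, the angiogenic factor, read 11.76 and 11.79, then 11.07 and 11.17, then 9.44 and 9.76 in the same order. In both genes the 3 groups were ordered alike and did not overlap.

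NDRG1, DDIT4 and BNIP3 were also lower with siRNA2 than with siRNA1, with differences of -1.74, -1.48 and -0.99. Of 7 regulators of this response 2 fell: CITED2, an inhibitor of the hypoxia-inducible factors, with a change of -0.82, and VHL, which marks their oxygen-sensitive subunits for degradation, with -0.32, a call lost with median centring. HIF1A and EPAS1, those subunits, changed by 0.04 and -0.02 and were not called. Among 38 glycolysis and pentose phosphate genes 13 fell and 5 rose. HK2, the first enzyme of glycolysis in many tumours, changed by -1.55 and the glucose transporter gene SLC2A1 by -0.86, while the pentose phosphate enzyme genes PGD, TALDO1 and TKT rose by 0.49, 0.31 and 0.30. Without the second scramble array 0 genes of the list were called higher, and without the first 8 were called lower. The core of the hypoxia response element, ACGTG or GCGTG on either strand, was in windows of 65.6% of all genes. Among 23 hypoxia-induced genes, whatever their change, the share was 91.3%. By change it was 62% among genes lower by at least 2-fold and 71.9% among those higher by at least 2-fold.

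Feedback genes of the MAPK pathway were lower. Of 45 MAPK-induced and feedback genes 22 fell and 5 rose, with a median of -0.42. The dual-specificity phosphatases, which switch MAP kinases off, held 7 falls and 0 rises among 12 members. DUSP10 read 8.93 and 8.79 with scramble and 5.65 to 6.20 with the PARK2 siRNAs, without overlap, and DUSP4 and DUSP6 changed by -1.70 and -0.98. SPRY1 and SPRY2, which restrain receptor kinase signals, changed by -2.45 and -1.34. Without the first scramble array 20 genes of the list were called lower and 0 higher. The genes that rose included LIF, by 1.03, at 6.23 and 6.19 with scramble, 6.43 and 6.59 with siRNA1, and 7.95 and 7.98 with siRNA2.

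Of 43 histone genes 15 fell and 4 rose, and the largest falls were in H2A and H2B genes. Leaving out any 1 SNB19 array left at most 1 gene called higher. H2BC12 read 11.29 and 11.39 with scramble and 8.56 to 8.82 with the PARK2 siRNAs, and H2AC6 and H2BC21 changed by -3.38 and -2.76. The linker histone gene H1-2 fell by 1.88, while the variant genes H2AZ1 and H2AZ2 rose by 0.29 and 0.25, calls lost without the first scramble array. Near-identical histone genes can share probes. In the same arrays 18 of 54 DNA replication genes rose and 1 fell, with a median of 0.25, and 10 were called higher when either scramble array was left out. MCM6, a subunit of the replicative helicase, read 9.89 and 9.74 with scramble and 10.92 to 11.19 with the PARK2 siRNAs, and POLA1, the priming polymerase, rose by 0.96. Of 54 mitosis genes 2 rose and 1 fell, but with SNB19 arrays alone 21 were called higher and 11 lower, and without the first scramble array 0 and 0. With SNB19 arrays alone 30 DNA replication genes were called higher. PRKDC, the DNA-dependent protein kinase, rose by 2.20, although 1 of its 3 probe sets changed by -0.14.

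Several broad families moved by small amounts. Of 56 cytosolic ribosomal protein genes 35 rose and 0 fell, with a median of 0.26, and RPL10A rose by 0.73, from 11.27 and 11.33 to between 11.98 and 12.08. Without the first scramble array 18 members and without the second 21 were called higher. These genes have many processed copies whose RNA could share probes. They are bright, and in the brightest 10% of all genes the median change was 0.09, with 249 genes called higher and 128 lower. Of 154 zinc finger genes named ZNF 57 fell and 7 rose, with a median of -0.22, or -0.13 with each array centred on its median, and 36 were called lower without the first scramble array. Leaving out 1 SNB19 array gave between 2 and 4 called higher, with 2 when the second siRNA1 array was left out. ZNF165 and ZNF211 changed by -2.08 and -0.88, and ZNF423 rose by 1.65. Genes of middling level, those ranked above the dimmest 40% and below the brightest 30%, had median changes between -0.07 and -0.06 in each 10% of genes. The part of level in these family shifts was not tested.

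Of 7 metallothionein genes of the MT1 and MT2 classes, whose proteins bind zinc and copper, 6 fell, with a median of -0.62. MT3, which is counted with the astrocyte genes, fell by 1.01. MT2A read 13.58 and 13.62 with scramble and 12.89 to 13.08 with the PARK2 siRNAs. MT1E read 11.54 and 11.69 with scramble, 10.47 and 10.56 with siRNA1, and 11.55 and 11.28 with siRNA2, so its groups overlapped. Their coding sequences are near-identical and may share signal. Of 16 circadian clock genes 7 fell and 1, CLOCK, rose, with a median of -0.48, and 11 were called lower with SNB19 arrays alone. BMAL1, the partner of CLOCK, read 8.22 and 8.16 with scramble and 7.16 to 7.38 with the PARK2 siRNAs, and its targets PER2 and DBP changed by -0.81 and -1.02, a second probe set of DBP changing by 0.04.

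Astrocyte genes held 3 of the 4 largest rises of the comparison. Of 34 measured 16 rose and 3 fell, with a median of 0.28. Without the second scramble array 11 were called higher, and 1 was called lower when either scramble array was left out. SCRG1, a small secreted protein gene, read 4.39 and 4.22 with scramble, 9.44 and 9.61 with siRNA1, and had a mean of 8.04 ± 0.06 (SD, n = 2) with siRNA2, and rose by 4.48 ± 0.15 (limma adjusted p = 1.91e-08). GFAP, the astrocyte filament protein, read 7.08 and 6.72 with scramble and 10.24 to 10.68 with the PARK2 siRNAs, but its second probe set changed by -0.07. CRYAB, a small heat shock protein, read 7.66 and 7.63 with scramble, 10.36 and 10.56 with siRNA1, and 11.17 and 11.27 with siRNA2. These groups did not overlap.

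Among other glial genes, EDNRB, the endothelin B receptor, and the matrix protein gene SPARCL1 rose by 2.64 and 2.40. S100B, a calcium-binding protein, rose by 1.00, and the gap junction gene GJA1 by 0.89. AQP4, the astrocyte water channel, ALDH1L1 and SOX9 changed by 0.26, -0.05 and 0.01 and were not called, and MT3 was among the 3 that fell. Of 33 progenitor and glial transcription factors 5 (15.2%) rose and 8 (24.2%) fell, against 15.5% and 17.4% of all genes, with a median of -0.01. Without the first scramble array 3 were called lower. SOX2, a stem cell factor, fell by 0.41, a call lost with median centring.

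Outside the astrocyte list SERPINA3, an acute-phase protease inhibitor, read 5.85 and 6.10 with scramble and 9.63 to 10.11 with the PARK2 siRNAs, without overlap, a rise of 3.95 ± 0.13 (limma adjusted p = 1.34e-08). CCL2, a chemokine for monocytes, read 6.25 on both scramble arrays and 9.12 to 9.59 with the PARK2 siRNAs. Of 27 measured chemokine genes it was the 1 that rose (3.7%, against 15.5% of all genes). The 5 that fell (18.5%) were CXCL10, CCL5, CXCL11, CXCL8 and CX3CL1, a share near the 17.4% of all genes. ACO1, the cytosolic aconitase that doubles as an iron sensor, read 6.66 and 6.48 with scramble and 9.37 to 9.58 with the PARK2 siRNAs. MMP7, a matrix protease, rose by 2.95 and HIPK2, a nuclear kinase, by 2.26. The integrin genes ITGB3 and ITGAV, which form a vitronectin receptor, rose by 1.96 and 1.38, the 7 probe sets of ITGB3 ranging from 0.17 to 1.96, whereas ITGA5 and ITGA2 changed by -1.04 and -0.81. Of 62 integrin and adhesion genes 15 (24.2%) rose and 19 (30.6%) fell, against 15.5% and 17.4% of all genes. Without the first scramble array 10 were called lower. FAP, a surface protease of activated fibroblasts, rose by 1.89 and CBX5, a heterochromatin protein gene, by 2.01.

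Contractile genes were higher more often than lower: 18 of 52 actin and contractile genes rose and 7 fell, with a median of 0.20, and 10 were called higher without the second scramble array and 3 lower without the first. MYLK, the myosin light chain kinase, rose by 1.94 and CALD1, an actin-binding protein, by 0.87. Of 28 collagen genes 7 rose, or 3 without the second scramble array, and 2 fell, COL14A1 rising by 1.71 while COL13A1 changed by -2.27.

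Parkin acts in mitophagy, the removal of damaged mitochondria. Of 29 mitophagy and quality control genes 7 (24.1%) rose and 6 (20.7%) fell, against 15.5% and 17.4% of all genes, with a median of 0.09. Without the first scramble array 4 were called higher and 3 lower, and with median centring 11 and 5. PINK1, the kinase that activates parkin, read 8.06 and 8.08 with scramble, 8.71 and 8.50 with siRNA1, and 8.21 on both siRNA2 arrays, and was not called (limma adjusted p = 0.053), although it was called with a replicate block, SNB19 alone and median centring. The autophagy receptor genes OPTN, CALCOCO2 and SQSTM1 changed by -0.66, -0.62 and -0.45, and TOMM20, a subunit of the import channel of the outer membrane, rose by 0.70. Of 56 oxidative phosphorylation genes 9 (16.1%) rose, near the 15.5% of all genes, and 1 (1.79%) fell, against 17.4%. Their median was 0.07. Without the first scramble array 3 were called higher, and 18 with median centring, where the median was 0.17.

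Enzymes that break down branched-chain and other amino acids in mitochondria held 16 rises and 4 falls among 32 genes, with a median of 0.29. Without the second scramble array 6 genes of the list were called higher. GCSH, a subunit of the glycine cleavage system, read 8.42 and 8.53 with scramble and 9.73 to 9.97 with the PARK2 siRNAs. ALDH5A1 and OXCT1, which handle gamma-aminobutyrate and ketone bodies, rose by 1.32 and 1.16, and KYNU, in tryptophan breakdown, fell by 1.00. Of 61 autophagy and lysosome genes 23 fell and 7 rose, with a median of -0.18. With median centring 14 were called lower and 12 higher, and without the first scramble array 10 and 3. The lysosomal hydrolase genes FUCA1 and CTSL changed by -1.47 and -1.41.

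The PARK2 siRNAs were also compared with each other. Of all genes 518 (6.06%) were called different, 263 higher and 255 lower with siRNA2, and 335 of them were also called against scramble. Leaving out 1 array of either siRNA gave between 134 and 176. Both siRNA groups share the scramble arrays, so their changes against scramble are given side by side. CD180, a Toll-like receptor homologue gene, read 7.03 and 7.09 with scramble, 9.01 and 8.83 with siRNA1, and 6.14 and 6.03 with siRNA2. PLN, a regulator of the calcium pump, read 3.59 and 3.38 with scramble, 4.36 and 3.90 with siRNA1, and 6.80 and 6.74 with siRNA2. IL11, a cytokine gene, changed by 0.87 with siRNA1 and 3.42 with siRNA2.

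CXCL8, a neutrophil chemokine, changed by -2.40 with siRNA1 and -0.43 with siRNA2, and HMOX1, which degrades haem, by -1.71 and 0.28. For 15 genes the siRNAs were called in opposite directions against scramble. Among these AKR1B10, an aldo-keto reductase gene chosen after its values were seen, changed by 2.04 with siRNA1 and -1.34 with siRNA2, and the copper transport gene CP by 0.75 and -1.41. Means over both siRNAs hide such genes, as with AKR1B10, whose mean change was 0.35 and not called.

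**Figure D4:**
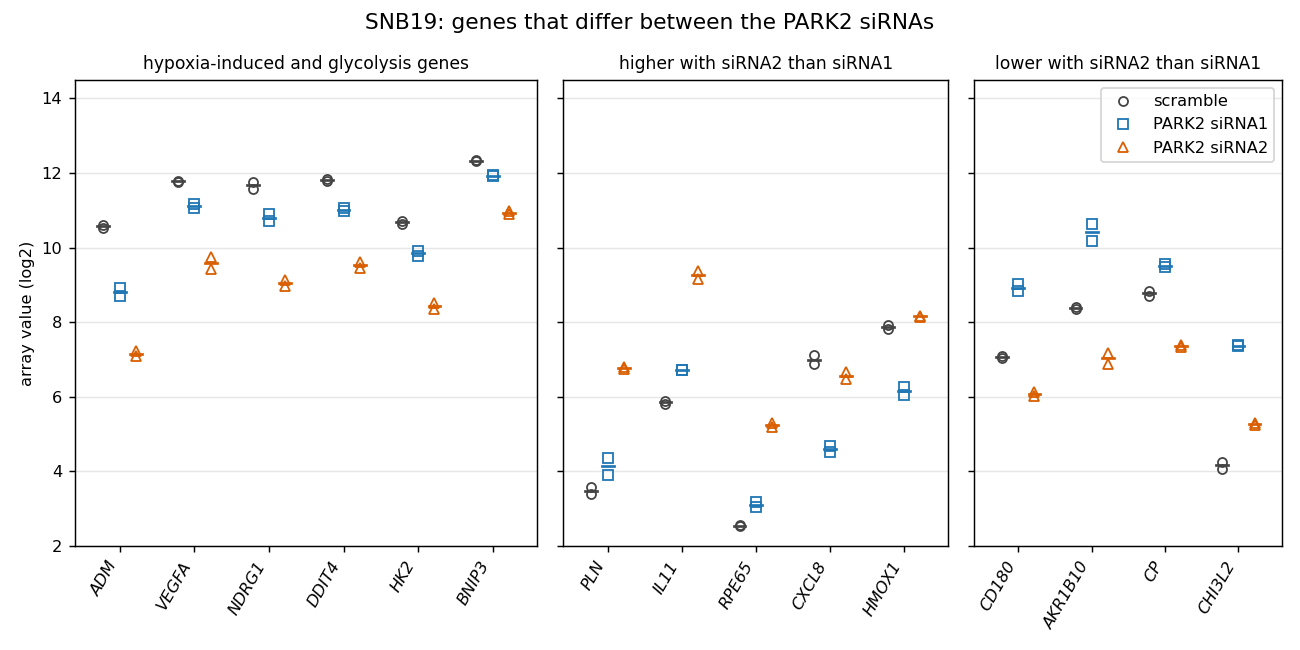
Level (log2) on each SNB19 array of genes that differ between the PARK2 siRNAs, with circles for scramble, squares for siRNA1, triangles for siRNA2 and a bar at each mean of 2 arrays. The 6 hypoxia-induced and glycolysis genes step down from scramble through siRNA1 to siRNA2, while CD180, AKR1B10 and CP lie above scramble with siRNA1 and below it with siRNA2.

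The same siRNAs in SF539 gave 496 genes higher (5.8%) and 343 lower (4.01%). The change differed between the lines for 1629 genes (19.1%), with SNB19 lower in 920 and higher in 709, or 952 genes without the first SNB19 scramble array, 1071 without the second and 2686 without the first SF539 siRNA2 array. Genes called in both lines numbered 477, which is 17% of the SNB19 calls and 56.9% of the SF539 calls. Of these 212 were higher in both, 161 lower in both, 27 higher in SNB19 and lower in SF539, and 77 the reverse.

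Interferon-stimulated effectors differed between the lines. Their mean level was 9.75 with scramble in SNB19 and 9.60 with scramble in SF539, but the median change in SF539 was -0.21, with 13 members lower and 1 higher, and 42 of 50 members were lower in SNB19 by the test of the difference. IFI27 changed by -0.12 in SF539, from a scramble mean of 12.88. IFIT1 and IFIT3, which are antiviral RNA-binding genes in one cluster, had SF539 scramble means of 2.97 and 4.58, against 12.85 and 12.88 on the SNB19 scramble arrays for IFIT1, so a fall of IFIT1 could not be measured there.

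The hypoxia-induced list had a median of 0.23 in SF539, with 6 members higher and 2 lower, and 21 of 29 were lower in SNB19 by the test of the difference. DDIT4, an inhibitor of mTORC1, changed by -1.54 in SNB19 and 1.58 in SF539 (limma adjusted p of the difference = 6.2e-06), and SREBF1, the lipid synthesis regulator, by -1.30 and 1.38. PODXL, a sialomucin gene, changed by 2.15 and -1.20. The astrocyte list had a median of 0.06 in SF539, where GFAP had a scramble mean of 3.93, and 11 members were higher in SNB19 by the test of the difference.

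Some immune genes moved alike. CCL2 changed by 3.11 in SNB19 and 3.40 in SF539, a difference of -0.29 with a 95% interval from -1.20 to 0.62. The SF539 siRNA2 arrays read 8.52 and 9.82 for CCL2, so its replicates lay apart there. CXCL11 changed by -2.51 and -2.41, CXCL8 by -1.41 and -1.55, and IFNB1 by -1.39 and -1.88, with a 95% interval of the IFNB1 difference from -0.21 to 1.20. These were not called different, which does not show that the lines respond equally.

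**Figure D5:**
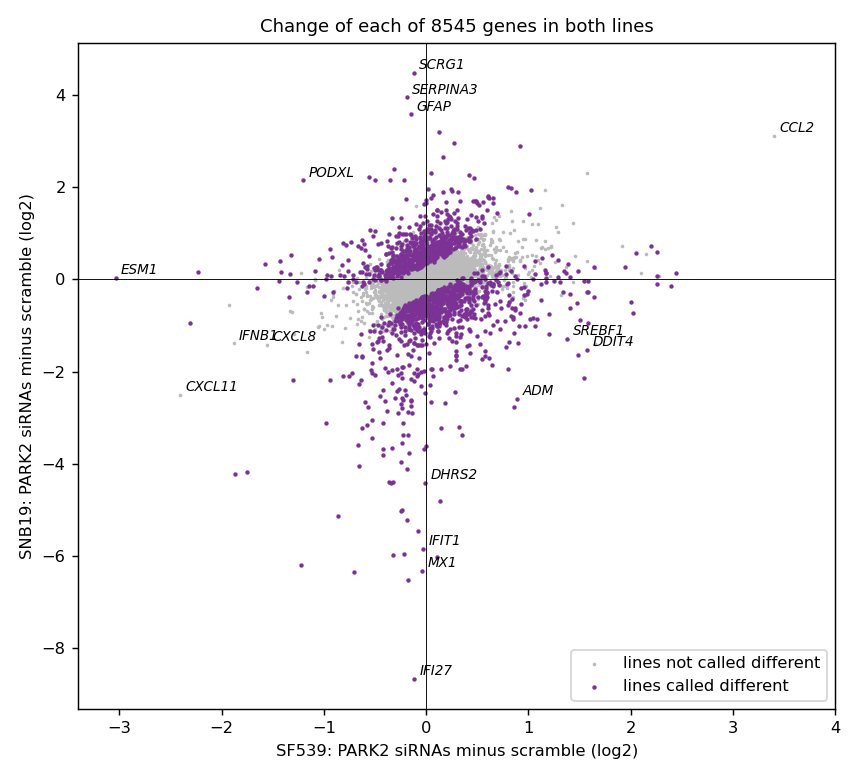
Change of each of the 8545 genes in SF539 (horizontal) and SNB19 (vertical), both log2 and PARK2 siRNAs minus scramble, purple where the lines were called different. IFI27 lies near 0 in SF539 and far below it in SNB19. CXCL11 and IFNB1 lie below 0 in both lines, and CCL2 lies far above 0 in both.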

How the data were processed

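Per the labels, biotin-labelled total RNA was hybridised to Affymetrix arrays, and the authors deposited log2 values for 16376 probe sets. The software was Partek, per the submitters' processing notes. How background was corrected and arrays were normalized, and on which build, is not given in the sources used here. No detection calls come with the values. Of the probe sets 14038 had 1 gene. Each of the 8545 genes was represented by its brightest probe set, with symbols from RefSeq (GRCh38.p14).

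All 12 arrays entered 1 linear model with a mean for each of 6 groups (limma 3.58.1 with lmFit and eBayes, in R 4.3.3). Residual degrees of freedom were 6 and the prior added 3.65. Tests were two-sided, and p-values were adjusted by Benjamini-Hochberg with a threshold of 0.05. Errors of changes are standard errors of the fit. The fit was tested on simulated data. Plots used matplotlib 3.10.9.

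The members and lists were chosen with earlier results of these data known. Named genes were the 25 largest rises and falls, the 25 largest falls outside the interferon and MHC lists, up to 6 called members of each list by smallest p, uncalled members, regulators, 10 genes that differed between the siRNAs and 10 in each direction between the lines. Other list members were named after their values were seen. Promoter windows came from RefSeq. Alternatives were leaving out each array, a 1.5-fold minimum (limma treat), array weights, a prior that was trended and robust, every probe set or their means, a filter that dropped the dimmest 40% of genes, centring on medians, quantile normalization, SNB19 by itself and a replicate block.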

Additional observations from a re-analysis of the deposited data

Results flagged for a closer look

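The siRNA effect was tested between the lines as the change in SNB19 minus that in SF539, and 20 genes stood out as the 10 with the largest called difference in each direction. The interferon and antigen presentation genes were lower in SNB19 in each case: IFI27 by -8.54, BST2 by -6.35, MX1 by -6.28, IFIT3 by -6.12, IFIT1 by -5.81, IFITM1 by -5.73, PSMB9 by -5.65, OAS1 by -5.64, IFI44L by -5.38 and ISG15 by -5.04. The SF539 scramble mean of IFIT1 was 2.97, below the lower quartiles of those arrays (4.02 and 3.98), so its difference cannot show a fall in SF539. That of IFIT3 was 4.58, above these quartiles but too low for a fall as large as in SNB19.

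Higher in SNB19 were SCRG1 by 4.60, SERPINA3 by 4.14, GFAP by 3.72, PODXL by 3.35, CRYAB by 3.07, MTSS1 by 2.79, SPARCL1 by 2.71, MMP7 by 2.68 and IL11 by 2.64. For MTSS1 and GFAP another probe set changed by -0.09 and -0.07 in SNB19. ESM1, with a difference of 3.07, changed by 0.04 in SNB19, where it was not called, and by -3.04 in SF539. Groups of 2 arrays are too small for a test of single outlying arrays.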

How the results depend on the processing

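Over 141 named genes and their alternatives, 2114 of 2237 pairs were called or not called as in the main fit. In 109 the call was lost and in 14 it was gained. In 0 pairs the sign changed with the gene called in either fit. Signs were not compared where neither fit called the gene. For 92 genes no alternative altered the call. The median change of a list moved by more than the median replicate SD in 236 of 1936 pairs. With a 1.5-fold minimum (limma treat) the counts were 400 for both siRNAs against scramble, 360 for siRNA1, 407 for siRNA2, 35 between the siRNAs and 265 between the lines. Between the siRNAs, SNB19 alone gave 1122 genes and array weights 1427. For both siRNAs against scramble these settings gave 3647 and 3667, above the 2806 of the main fit. They gave 3201 and 3329 for siRNA1, and 3428 and 3518 for siRNA2. Leaving out 1 array gave 1741 to 2343 genes for both siRNAs, 1405 to 1551 for siRNA1, 1593 to 1845 for siRNA2, 134 to 176 between the siRNAs and 952 to 2686 between the lines. In these fits a lone array was assumed to vary like the other groups. Centring on the median gave 1283 genes higher and 610 lower in SNB19 for the line difference, and quantile normalization 1522 and 1326 for both siRNAs. CP, SOX2, VHL and IFNGR1 lost their call with median centring, and the means of CD180 and HMOX1 without either scramble array.

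A replicate block gave 2761 genes for both siRNAs, and 424 between the siRNAs. The replicate numbers share no stated source, and same-numbered arrays deviated with correlations of 0.109, 0.0124 and 0.0123, so they were not taken as pairs. Few arrays, probe sets without detection calls and dim genes near the lower quartile limit small or low changes, and a fold change against such levels is a compressed value.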
